A study of Mus musculus with 25 samples.

Results

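The 9 cartilage matrix genes described here were taken by name from a table of gene expression in the E14.5 mouse palate: Acan, Hapln1, the 4 matrilins Matn1, Matn2, Matn3 and Matn4, Comp, Chad and Cytl1. They are 9 of the 37091 gene symbols in the table and take up 10 of its 37406 rows, since Matn2 has a second row that was listed at 0 in every library. All tissue came from wild type CD1 mouse embryos at E14.5, and no group carried a mutation or a treatment. The palate was cut by laser capture into anterior medial, anterior lateral, anterior oral, anterior nasal, posterior medial, posterior lateral, posterior oral and posterior nasal compartments, with 3 libraries each and 4 for anterior nasal, 25 in all. Oral plus nasal tissue covers the same shelf as medial plus lateral tissue, so the 4 compartments of a region are 2 ways of dividing it and not 4 separate tissues. The labels do not tie a library to an embryo, and p-values therefore measure the spread between these libraries.

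Cartilage matrix is a hydrated gel held in a collagen network. Aggrecan, the product of Acan, carries chondroitin sulfate chains and binds hyaluronan, link protein (Hapln1) locks that bond, and matrilins, COMP and chondroadherin (Chad) tie aggrecan and collagen fibrils together. Cytl1 encodes a small secreted factor of chondrocytes, and several of these genes are also used outside cartilage, among them Matn2 and Hapln1 in other connective tissue. The bone of the palatal shelves forms directly in mesenchyme without a cartilage model, while cartilage lies close by in the nasal septum and the lower jaw.

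Expression was given as RPKM, read number divided by transcript length and by the mapped reads of each library, which allows genes to be compared with each other per length. The depth implied by the steps between low values was 1.64 M to 6.56 M reads a library (median 3.27 M), which is well below the number of sequenced reads that the study's methods state, before duplicates and reads with several alignments were removed. At the implied depth, 1 read on a transcript of 2000 bases equals 0.0763 to 0.305 RPKM. The libraries came from 8 sequencing runs. The second posterior medial library stood apart, with 12935 genes above 0 against 16330 to 20605 in the other 24, and its correlation with the other libraries of its group did not exceed 0.691. The first anterior oral library also correlated poorly with its group (r = 0.745 and 0.661) and had the lowest implied depth, 1.64 M reads. In a tissue sample, fewer cells of a type and less RNA per cell cannot be told apart. Markers of the palate mesenchyme (Prrx1, Twist1, Osr2, Pdgfra, Col1a1, Col3a1) summed to between 463 and 903 RPKM over the 25 libraries, so the defining genes of the labelled tissue were present throughout. Markers of other cells were present as well, where epithelial markers summed to 15.6 to 125 RPKM, skeletal muscle markers to 1.26 to 163 RPKM and endothelial markers to 61.1 to 209 RPKM.

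The members fell into 3 kinds by level. Hapln1 and Matn2 were measured throughout, each with 24 of 25 libraries at 5 RPKM or more, and with means over all libraries of 11.3 and 12 RPKM. Acan and Matn4 had means of 3.09 and 2.64 RPKM and reached 5 RPKM in 6 libraries each. Matn1, Matn3, Comp, Chad and Cytl1 had means of 0.465, 0.130, 0.687, 0.627 and 0.660 RPKM and reached 5 RPKM in no library. For scale, Sox9, the transcription factor that drives chondrocyte fate, had a mean of 39.2 RPKM, and Col2a1, the main collagen of cartilage, a mean of 22.7 RPKM. Matn1 and Matn3, the matrilins best known from cartilage, were the lowest of the 9 genes.

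**Figure D1:**
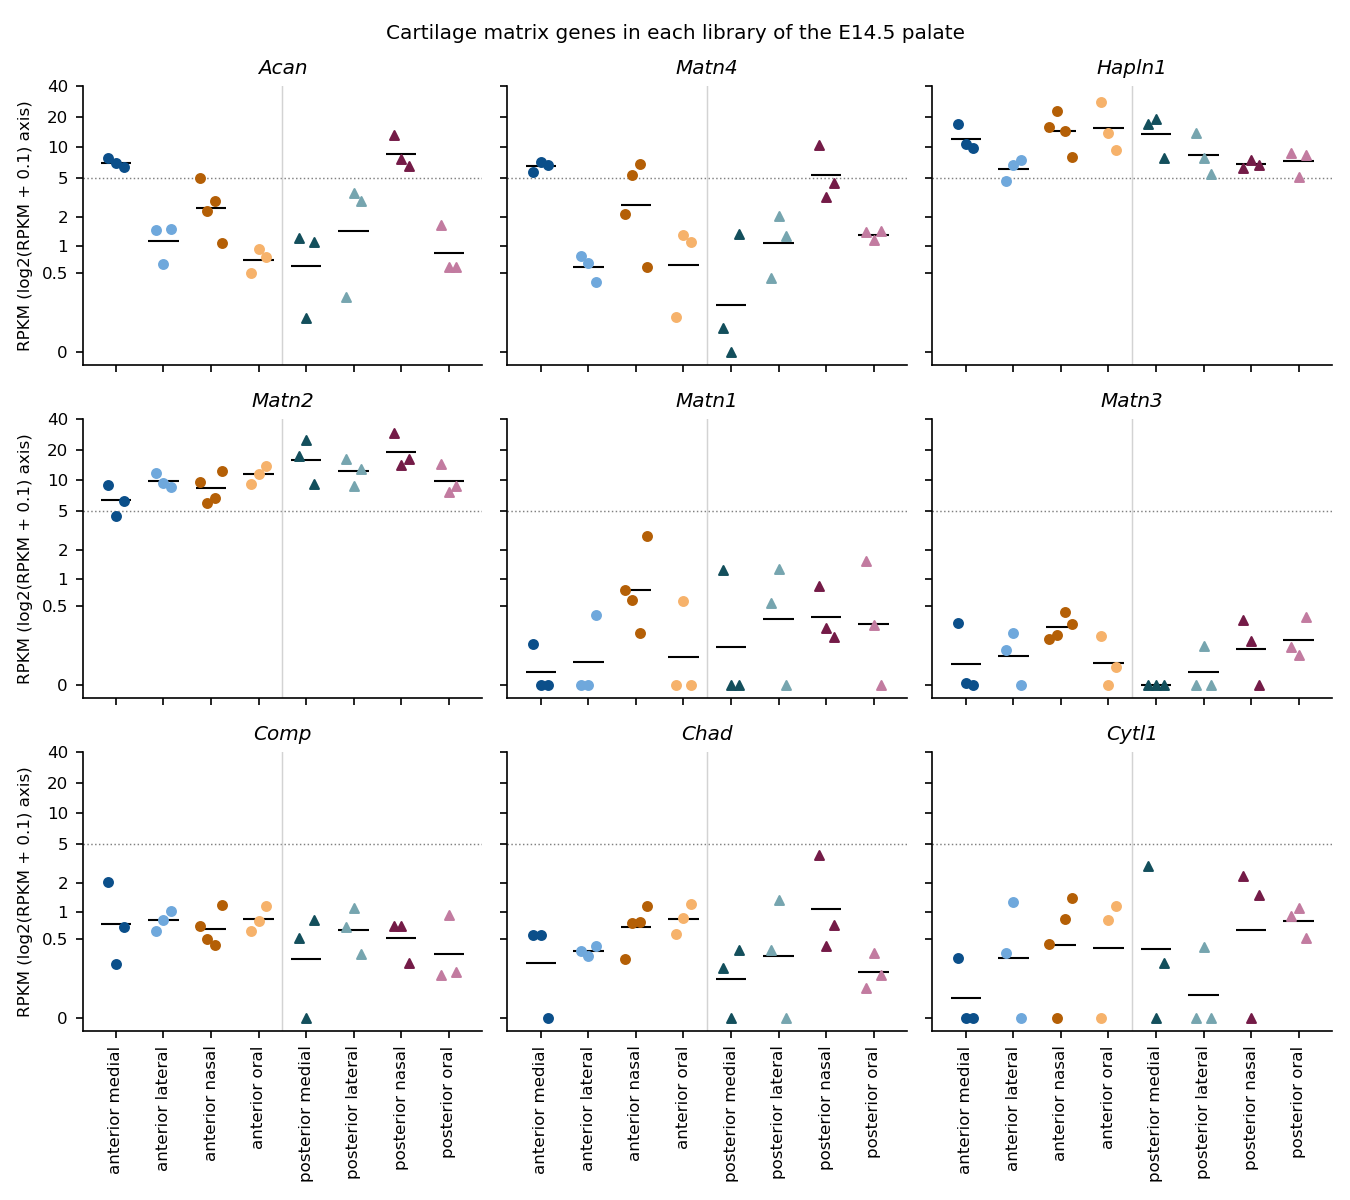
RPKM of each cartilage matrix gene in each of the 25 libraries, on a log2(RPKM + 0.1) axis. Circles are anterior and triangles posterior libraries, black bars are means on the plotted scale, and the dotted line marks 5 RPKM. Acan and Matn4 stand above 5 RPKM in anterior medial and in part of the nasal libraries, Hapln1 and Matn2 stay near or above it throughout, and the other 5 genes stay below it.

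Acan and Matn4 are the 2 members that passed a test between compartments, and the DNA just before their starts is shown for that reason. Sequences are from RefSeq promoters on GRCm38.p6, matched by symbol for 7 of the 9 genes (8 starts, as Matn4 has 2, and the one farther upstream is printed); Comp and Matn2 had no entry. Each line gives the 250 bases before the start, at chr7:79052976-79053225 on the plus strand for Acan and chr2:164405161-164405410 on the minus strand for Matn4, with capitals for CCGCCC on either strand, the core letters of the GC box.
Acan: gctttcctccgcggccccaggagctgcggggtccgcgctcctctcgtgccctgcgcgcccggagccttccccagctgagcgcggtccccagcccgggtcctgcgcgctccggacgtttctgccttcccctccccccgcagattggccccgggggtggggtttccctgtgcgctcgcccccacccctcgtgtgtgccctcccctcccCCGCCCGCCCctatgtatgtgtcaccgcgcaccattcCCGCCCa
Matn4: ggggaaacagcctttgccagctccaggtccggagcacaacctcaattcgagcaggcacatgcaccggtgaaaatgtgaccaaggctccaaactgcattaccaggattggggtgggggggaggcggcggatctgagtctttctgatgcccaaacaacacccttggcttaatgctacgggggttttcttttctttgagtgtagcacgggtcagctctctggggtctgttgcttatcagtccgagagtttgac
The Acan window held 3 matches to CCGCCC, of which 2 overlap, and had 74.4% G and C with 26 CpG, while the printed Matn4 window held no match and had 54.4% G and C with 8 CpG. The other Matn4 start, at chr2:164404819-164405068 on the minus strand, held 1 match and had 62.8% G and C with 14 CpG. Of 32851 promoters searched over the same length, 32.7% held CCGCCC, and the medians were 52.4% G and C and 6 CpG. The letters ACAATG and ACAAAG, the cores of sites that SOX proteins bind, were searched on both strands and were found in none of the 8 member windows, against 25.2% of all promoters. That says only that these letters are not in these windows.

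Acan encodes aggrecan, and the table lists the gene (ID 11595) at chr7:86198369-86259985. The submitters' processing notes name mm9 as the build, so these coordinates are not on the build of the promoter sequences. In the anterior palate its level was 7.74, 7.05 and 6.44 RPKM in the medial libraries and 1.46, 0.624 and 1.51 RPKM in the lateral libraries. It was 4.92, 2.33, 2.92 and 1.07 RPKM in the anterior nasal and 0.493, 0.921 and 0.747 RPKM in the anterior oral libraries. The medial and lateral values did not overlap, and neither did the nasal and oral values. Over the genes tested between anterior lateral and medial tissue, 11.6% had lower lateral values with no overlap. Over those tested between anterior oral and nasal tissue, which did not include Acan, 2.03% had lower oral values with no overlap.
In the posterior palate Acan was highest in the nasal libraries, at 13.1, 7.60 and 6.48 RPKM, against 1.67, 0.578 and 0.581 RPKM in the oral libraries. The posterior medial libraries had 1.20, 0.114 and 1.09 RPKM and the posterior lateral libraries 0.245, 3.48 and 2.88 RPKM. Posterior nasal and oral did not overlap, whereas posterior medial and lateral did. Over the genes tested between posterior oral and nasal tissue, 5.64% had lower oral values with no overlap. In order of mean level the compartments ran posterior nasal, anterior medial, anterior nasal, posterior lateral, anterior lateral, posterior oral, posterior medial and anterior oral. Of neighbours in that order, the values of anterior medial and anterior nasal alone did not overlap. The order was set by the same values, and no share over all genes was computed for neighbours.

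Matn4 encodes matrilin-4, a filament-forming adaptor that is known from cartilage and from other matrices, and is listed (ID 17183) at chr2:164215134-164230114. It was 5.71, 7.15 and 6.72 RPKM in the anterior medial libraries and 0.773, 0.652 and 0.380 RPKM in the anterior lateral libraries. The anterior nasal libraries had 2.13, 5.25, 6.76 and 0.578 RPKM and the anterior oral libraries 0.119, 1.31 and 1.11 RPKM. Medial stood clear of lateral, while the nasal and oral values overlapped through the lowest nasal library. Over the genes tested between anterior lateral and medial tissue, 11.6% had lower lateral values with no overlap. In the posterior palate the nasal libraries had 10.6, 3.20 and 4.39 RPKM and the oral libraries 1.38, 1.14 and 1.43 RPKM, with no overlap. Over the genes tested in that comparison, which did not include Matn4, 5.64% had lower oral values with no overlap. The posterior medial libraries had 0.0719, 0 and 1.33 RPKM and the posterior lateral libraries 0.429, 2.05 and 1.26 RPKM, which overlapped. The same 3 compartments led the order as for Acan, in the order anterior medial, posterior nasal and anterior nasal, and all neighbours in the order overlapped.

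Across the 25 libraries, log2(RPKM + 0.1) of Acan and Matn4 correlated with r = 0.823 and rho = 0.807. Without the 2 libraries farthest from the Acan median r was 0.747. It was 0.839 in the 13 anterior libraries, 0.819 in the 12 posterior libraries and 0.914 in the 8 libraries of the largest sequencing run. Over all 25 libraries r of Acan was 0.479 with Sox9, 0.338 with Col2a1, -0.19 with Hapln1 and -0.163 with Matn2. With Sox9 it was 0.655 in anterior libraries, 0.538 in posterior libraries and 0.639 in the largest run. The other values moved strongly with the libraries used. With Col2a1 r was 0.658 in anterior and 0.555 in posterior libraries but -0.236 in the largest run, with Hapln1 it was 0.144 in anterior and -0.597 in posterior libraries, and with Matn2 it was -0.633 in anterior and 0.171 in posterior libraries. These values describe libraries that share compartments and runs.

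**Figure D2:**
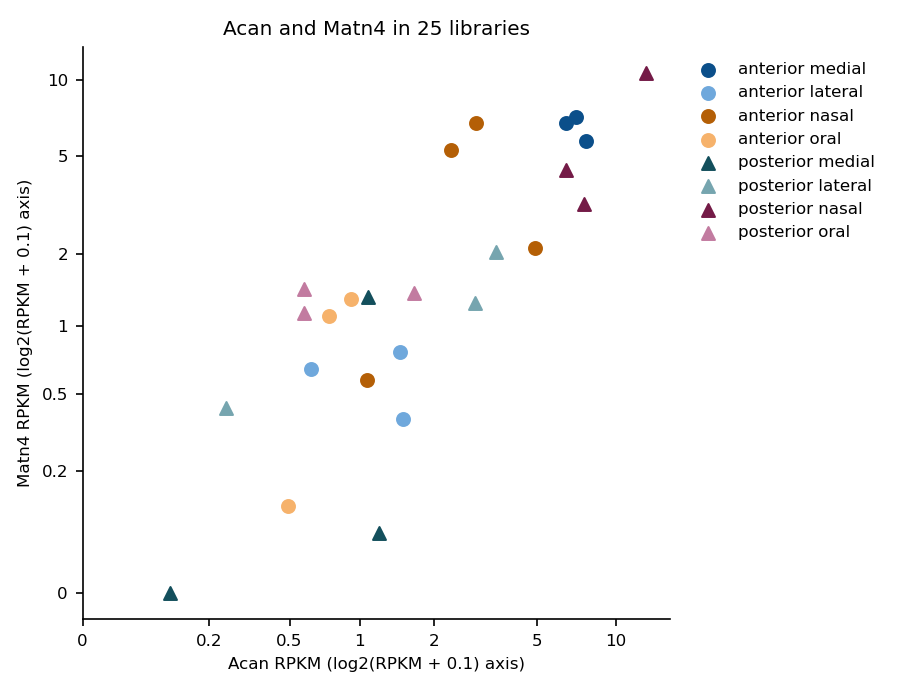
Matn4 against Acan in the 25 libraries, both in RPKM on log2(RPKM + 0.1) axes, with circles for anterior and triangles for posterior libraries. The 3 anterior medial and 3 posterior nasal libraries and part of the anterior nasal libraries lie at the upper right (r = 0.823 over all 25).

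By the same measure, over 11909 other genes with 5 RPKM or more in at least 3 libraries, the genes most like Acan were Emid1 (r = 0.807), Nfatc1 (r = 0.803) and Cnot8 (r = 0.80). Those most like Matn4 were Grin3a (r = 0.876), Supt3h (r = 0.862) and Enc1 (r = 0.84). For Hapln1 they were Ctsc (r = 0.795), Fermt1 (r = 0.753) and Papss2 (r = 0.751), and for Matn2 they were Ppm1e (r = 0.804), Jph1 (r = 0.769) and Elmo1 (r = 0.758). No gene of the cartilage lists other than Papss2, which makes the sulfate donor for chondroitin sulfate, was among these 12 genes.

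On mm9 the table lists Hapln1 (ID 12950) at chr13:89680241-89751437 and Matn2 (ID 17181) at chr15:34236436-34365995. Matn1 (ID 17180) lies at chr4:130500300-130511391, Matn3 (ID 17182) at chr12:8954735-8978834 and Comp (ID 12845) at chr8:72897447-72905965. Chad (ID 12643) lies at chr11:94426388-94430441 and Cytl1 (ID 231162) at chr5:38126758-38131059. The 9 genes thus lie on 9 chromosomes.

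The first comparison asked how lateral and medial tissue differ in the anterior palate. Acan and Matn4 were both lower in the lateral compartment: Acan by 5.86-fold (log2 fold change -2.55, SE 0.30, adjusted p = 0.0065) and Matn4 by 9.69-fold (log2 fold change -3.28, SE 0.23, adjusted p = 0.00093). Fold changes and tests are from limma on log2(RPKM + 0.1), adjusted by Benjamini-Hochberg over the 10427 genes with 5 RPKM or more in at least 3 of the compared libraries, with 3 libraries in each group. Over all those genes 2.51% were called at an adjusted p under 0.05, and 1.08% were called lower. Both genes passed the expression minimum only through the anterior medial libraries, so a pass already implied a difference, and 5 of the 9 members were not tested because they were under it. Sets of values with no overlap, lateral lower, made up 11.6% of all genes tested.
The other 2 members tested did not pass. Hapln1, the link protein gene, was 16.9, 10.7 and 9.89 RPKM in the anterior medial and 4.61, 6.66 and 7.51 RPKM in the anterior lateral libraries. Its values did not overlap, with a log2 fold change of -0.97 (SE 0.25, adjusted p = 0.109). Matn2 was 9.03, 4.44 and 6.27 RPKM in the medial and 11.9, 9.46 and 8.57 RPKM in the lateral libraries, which overlapped, with a log2 fold change of 0.64 (SE 0.26, adjusted p = 0.295).
Medial and lateral libraries shared no sequencing run in the anterior palate, where run cannot be told apart from compartment. In a fit of all 25 libraries by compartment, without a run term, neither gene passed (adjusted p = 0.310 for Acan and 0.214 for Matn4), and with no expression minimum Acan did not pass (adjusted p = 0.0513) while Matn4 did (adjusted p = 0.0168). With a term for the run in a fit of all 25 libraries, no gene at all was called, Acan had a log2 difference of -2.10 and Matn4 of -3.77 (adjusted p = 1.0 for both). In that fit 2 anterior lateral libraries, the first posterior lateral and the first posterior medial library were taken up by terms of runs that held no other compartment.

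Genes that work with these members moved in part with them in the same comparison. Of 11 chondrocyte regulators 6 were tested, 3 were lower in the lateral compartment and none higher: Sox9 (log2 fold change -2.36, SE 0.20, adjusted p = 0.0022), Sox5, its partner in chondrocytes (log2 fold change -2.12, SE 0.31, adjusted p = 0.016) and Pth1r, the receptor for parathyroid hormone-related protein (log2 fold change -0.62, SE 0.12, adjusted p = 0.0465). The list had a median of -0.78 against -0.03 for all genes tested. It was chosen with earlier results of these data known, and the study had itself named Sox9 as higher in the anterior medial compartment. Sox9 was 56.0 ± 15.5 RPKM (SD, n = 3) in anterior medial and 10.6 ± 1.00 RPKM (SD, n = 3) in anterior lateral tissue. Of 8 cartilage collagens 5 were tested and none passed, with Col2a1 at a log2 fold change of -0.98 (SE 0.28, adjusted p = 0.145) and Col11a1, the most abundant, at -0.55 (SE 0.19, adjusted p = 0.213). None of the 4 tested hyaluronan and lectican genes passed, among them Vcan, which encodes the large proteoglycan of mesenchyme (log2 fold change 0.27, SE 0.11, adjusted p = 0.293), and Has2, the main hyaluronan synthase (log2 fold change 0.41, SE 0.22, adjusted p = 0.44). None of 9 tested genes of chondroitin sulfate assembly, of 2 tested aggrecanases or of 3 tested other matrix genes passed.
Markers of other cells moved in this comparison too. Of 2 osteoblast markers tested, Runx2 was lower in the lateral compartment (log2 fold change -1.54, adjusted p = 0.025), and the summed level of the 10 markers was 77.8 to 116 RPKM in medial and 61.4 to 205 RPKM in lateral libraries. Of 6 tendon markers 3 were tested, Kera was higher in the lateral compartment (log2 fold change 2.23, adjusted p = 0.018) and Mkx lower (log2 fold change -1.77, adjusted p = 0.013). Among epithelial markers Krt14 was lower (log2 fold change -2.15, adjusted p = 0.0104) and Krt8 higher (log2 fold change 1.36, adjusted p = 0.0498), and their summed level was 52.9 to 102 RPKM in medial and 34.5 to 57.0 RPKM in lateral libraries. Of 3 nerve and Schwann cell markers tested, Sox10 was higher (log2 fold change 2.43, adjusted p = 0.0041) and Prph lower (log2 fold change -3.43, adjusted p = 0.0163) in the lateral compartment, and the 8 markers summed to 39.4 to 62.6 RPKM in medial and 22.4 to 27.5 RPKM in lateral libraries. Of the 6 palate mesenchyme markers Osr2 was called, higher in the lateral compartment (log2 fold change 0.96, adjusted p = 0.045). Endothelial markers summed to 117 to 140 RPKM in medial and 163 to 185 RPKM in lateral libraries, and none of the 7 was called while all 7 had an unadjusted p under 0.05. For a marker that met the expression minimum only through its higher compartment, a pass already implied a difference. The study had itself named Prph as higher in the anterior medial compartment. The part of these other cells in the member differences was not tested.

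**Figure D3:**
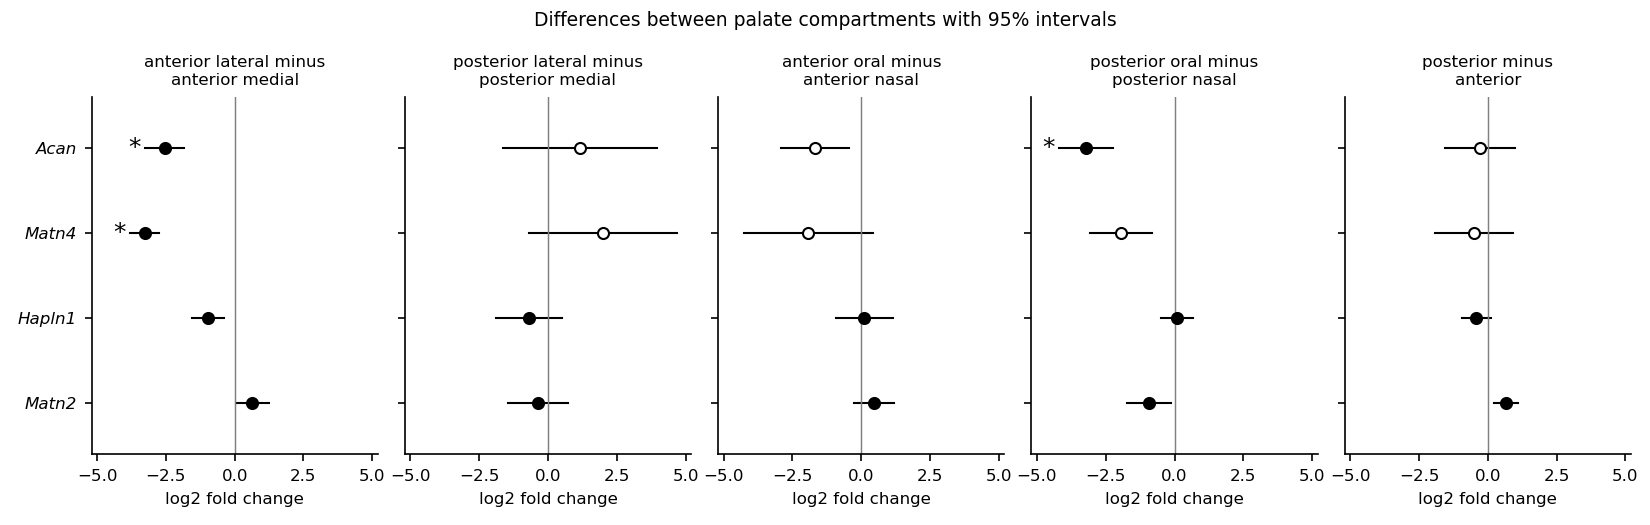
Log2 fold change on the log2(RPKM + 0.1) scale of Acan, Matn4, Hapln1 and Matn2 in 5 comparisons, with 95% intervals. Filled points were tested, open points were under the expression minimum and come from the fit with no minimum, and an asterisk marks an adjusted p under 0.05, which Acan has in 2 comparisons and Matn4 in 1.

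The second comparison asked the same of the posterior palate. Hapln1 and Matn2 were tested and neither passed. Hapln1 was 16.8, 18.9 and 7.77 RPKM in the posterior medial and 13.7, 7.80 and 5.44 RPKM in the posterior lateral libraries, with a log2 fold change of -0.69 (SE 0.50, adjusted p = 0.957). Matn2 was 17.5, 24.6 and 9.22 RPKM in the medial and 16.2, 8.82 and 12.9 RPKM in the lateral libraries, with a log2 fold change of -0.37 (SE 0.45, adjusted p = 0.957). The groups overlapped for both. By limma 0 of 10324 genes were called in this comparison, with 159 at an unadjusted p under 0.05, so 0% is the background here. Without the second posterior medial library, which stood apart, the differences were -0.45 for Hapln1 and -0.05 for Matn2. Acan and Matn4 were under the minimum, and their log2 differences of 1.16 (SE 1.15) and 1.99 (SE 1.11), lateral minus medial, have intervals of -1.65 to 3.97 and -0.70 to 4.69. Posterior medial and lateral libraries shared no run either, with the same limit.

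Whether the lateral to medial difference itself changed from anterior to posterior was tested over the 4 compartments. The anterior difference minus the posterior one was -5.27 for Matn4 (SE 1.21, adjusted p = 0.457) and -3.71 for Acan (SE 1.28, adjusted p = 0.964), and no member passed, in a test that called 0.00902% of 11089 genes. The unadjusted p from limma was 0.0014 for Matn4 and 0.0158 for Acan. Both genes passed the minimum of this test through the anterior medial libraries. Without the second posterior medial library they were -4.50 for Matn4 and -2.86 for Acan, and without the third posterior medial library Matn4 passed (-6.42, adjusted p = 0.019). In levels, anterior and posterior medial tissue did not overlap for either gene: Acan was 6.44 to 7.74 against 0.114 to 1.20 RPKM, and Matn4 was 5.71 to 7.15 against 0 to 1.33 RPKM. Among all genes with 5 RPKM or more in 3 of those libraries, 6.94% had lower posterior medial values with no overlap. The 3 anterior medial libraries and the second and the third posterior medial libraries came from 1 sequencing run, in which Acan was 0.114 and 1.09 RPKM and Matn4 was 0 and 1.33 RPKM in the posterior medial libraries.

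The third comparison was of oral and nasal tissue in the anterior palate. Hapln1 was 15.8, 22.7, 14.6 and 8.02 RPKM in the nasal and 27.7, 14.0 and 9.46 RPKM in the oral libraries, with a log2 fold change, oral minus nasal, of 0.11 (SE 0.45, adjusted p = 1.0). Matn2 was 9.69, 5.99, 6.61 and 12.3 RPKM in the nasal and 9.30, 11.5 and 13.9 RPKM in the oral libraries, with a log2 fold change of 0.46 (SE 0.32, adjusted p = 1.0). The groups overlapped for both genes. By limma 0 of 10684 genes were called, 0%, with 318 at an unadjusted p under 0.05. Acan was under the minimum, with lower values in all 3 oral libraries and a log2 difference of -1.68 (SE 0.52), and 2.03% of the genes tested had lower oral values with no overlap. Matn4 had a log2 difference of -1.92 (SE 1.00).
The oral and nasal libraries of the anterior palate shared 3 sequencing runs. Within them the Acan log2 difference was -2.56, -1.57 and -0.47, lower in oral tissue each time. The Matn4 difference was -3.98, -2.28 and 0.83 in the same runs, so in 1 of the 3 the oral library had the higher level, 1.11 against 0.578 RPKM. The -3.98, like the -2.56 for Acan, rests on the first oral library, which had the lowest implied depth. Matn4 was 0.119 RPKM there, about 0.81 reads, so the size of that difference depends on the pseudocount. Sox9 was 51.9 ± 14.6 RPKM (SD, n = 4) in nasal and 21.9 ± 11.4 RPKM (SD, n = 3) in oral tissue, a log2 difference of -1.33 that did not pass (SE 0.39, adjusted p = 0.927), and Col2a1 had a log2 difference of -1.37 (SE 0.40, adjusted p = 0.915). No cartilage list had a gene called in this comparison.

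The fourth comparison was of oral and nasal tissue in the posterior palate. Acan was lower in oral tissue by 9.36-fold (log2 fold change -3.23, SE 0.43, adjusted p = 0.0149), the only one of 3 members tested that passed. Over the 10586 genes tested 1.25% were called, and 0.661% were called lower. Acan passed the expression minimum only through the nasal libraries, so a pass already implied a difference. With no expression minimum its adjusted p was 0.103, and in the fit of all 25 libraries by compartment it was 0.0567. In 2 runs shared by both compartments its log2 difference was -2.90 and -3.50. Over the same genes, its adjusted p was 0.0523 without the second oral library and 0.0544 without the third, and leaving out any 1 library gave log2 differences of -3.69 to -2.93. With a run term in a fit of all 25 libraries the log2 difference was -3.24 (adjusted p = 0.0842).
Hapln1 was 6.29, 7.43 and 6.71 RPKM in the posterior nasal and 8.86, 5.11 and 8.37 RPKM in the posterior oral libraries, with a log2 fold change of 0.09 (SE 0.26, adjusted p = 0.999), and the interval of that difference ran from -0.50 to 0.68. Matn2, at 29.2, 14.2 and 16.2 RPKM in nasal and 14.6, 7.74 and 8.73 RPKM in oral tissue, had a log2 fold change of -0.92 (SE 0.35, adjusted p = 0.472), and its values overlapped by the first oral library. Matn4 was under the minimum, with lower oral values in all 3 libraries and a log2 difference of -1.94 (SE 0.46). Within the 2 shared runs that difference was -2.86 and -1.26.
Chad, which encodes a leucine-rich repeat protein that binds collagen and integrin, was 3.88, 0.405 and 0.724 RPKM in the posterior nasal and 0.0987, 0.331 and 0.164 RPKM in the posterior oral libraries. The values did not overlap, as those of 5.64% of the genes tested did not in that direction, and the log2 difference was -2.06 (SE 0.79). Chad itself was under the minimum, so that share comes from genes of higher level. The first nasal library held the highest Chad level of all 25, and at this depth the other values stand for few reads.

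**Figure D4:**
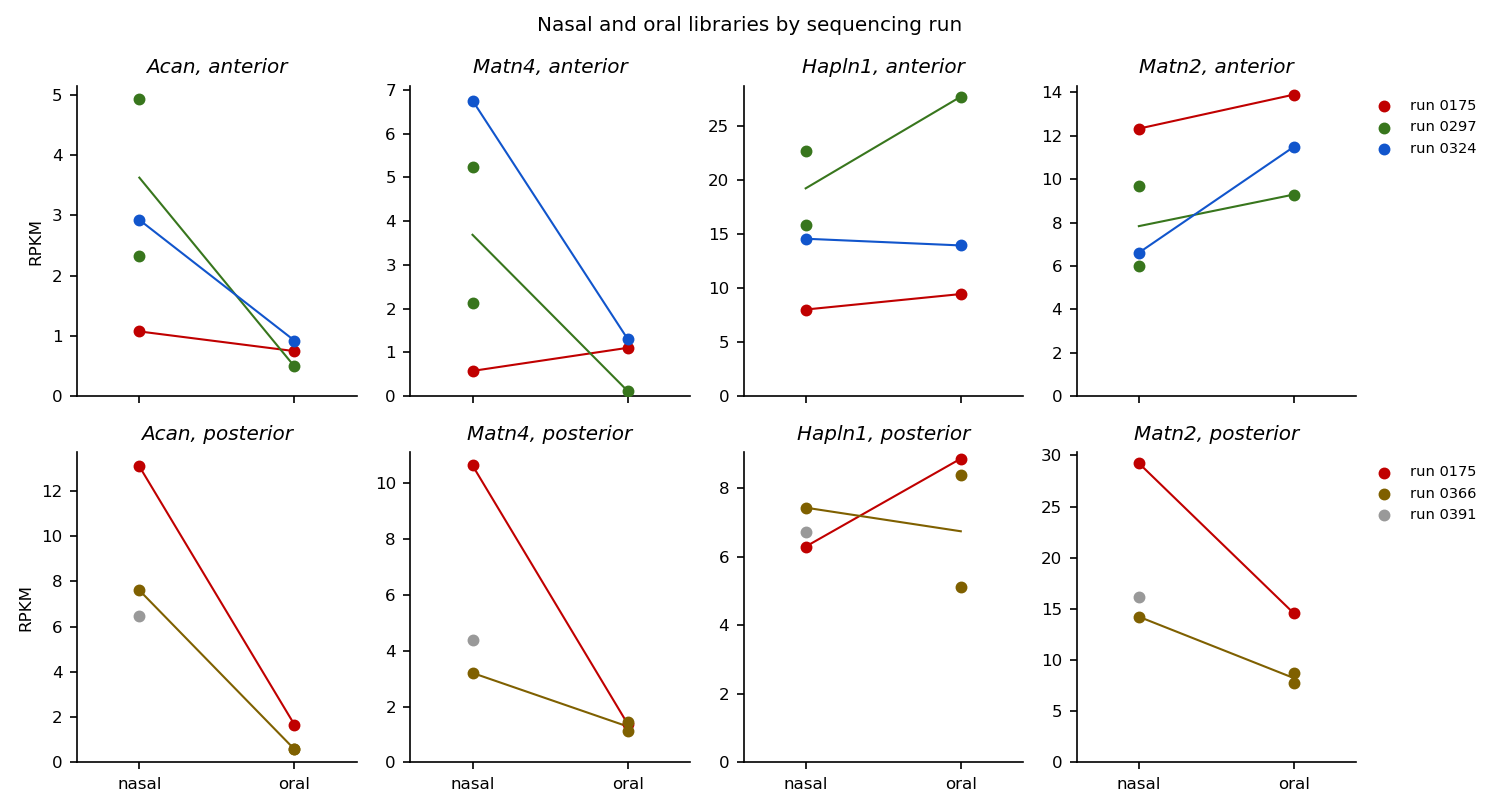
RPKM of Acan, Matn4, Hapln1 and Matn2 in nasal and oral libraries of the anterior (top) and posterior palate (bottom), coloured by sequencing run, with lines joining the means of runs that hold both. The Acan lines all fall from nasal to oral, those of Matn4 fall in both posterior lines and in 2 of 3 anterior lines, and those of Hapln1 go both ways. The red run holds libraries of both regions.

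Osteoblast markers differed in this comparison too. The list was chosen with earlier results of these data known. The study had itself named Ibsp, Panx3, Dlx3 and Sp7 as higher in the posterior nasal compartment, so their direction is no independent result. All 6 tested of 10 osteoblast markers were lower in oral tissue, led by Ibsp, bone sialoprotein (log2 fold change -6.22, SE 1.00, adjusted p = 0.028), the channel gene Panx3 (log2 fold change -5.21, SE 0.67, adjusted p = 0.014) and the homeobox gene Dlx3 (log2 fold change -5.14, SE 0.79, adjusted p = 0.026). Their median was -4.11 against -0.01 for all genes tested, and the summed level of the 10 markers was 443 to 643 RPKM in posterior nasal and 91.6 to 111 RPKM in posterior oral libraries. In the anterior medial compartment, where Acan was also high, the same sum was 77.8 to 116 RPKM. For a marker that met the expression minimum only through the nasal libraries, a pass already implied a difference. The shared direction and the median of the tested markers can follow from that in part. Endothelial markers summed to 61.1 to 95.8 RPKM in posterior nasal and 144 to 205 RPKM in posterior oral libraries, and Emcn passed (log2 fold change 1.58, adjusted p = 0.0401). The epithelial keratin Krt18 was lower in oral tissue (log2 fold change -1.61, adjusted p = 0.028). The part of these cells in the Acan difference was not tested.
Of 11 chondrocyte regulators 7 were tested and 2 were lower in oral tissue, the SOX9 partner Sox6 (log2 fold change -2.71, SE 0.47, adjusted p = 0.038) and the growth factor receptor Fgfr3 (log2 fold change -1.82, SE 0.23, adjusted p = 0.014). The study had itself named Sox6 as higher in the posterior nasal compartment. Sox9 itself was 51.3 ± 8.74 RPKM (SD, n = 3) in nasal and 48.5 ± 9.11 RPKM (SD, n = 3) in oral tissue (log2 fold change -0.09, SE 0.24, adjusted p = 0.999). Col2a1 had a log2 fold change of -0.16 (SE 0.29, adjusted p = 0.999). Of 8 cartilage collagens 6 were tested and none passed, with the largest difference in Col9a1 (log2 fold change -2.87, SE 0.85, adjusted p = 0.254). The 3 tested aggrecanases, which cut aggrecan or related proteoglycans, did not pass either, with Adamts1 at -1.15 (SE 0.28, adjusted p = 0.13), Adamts4 at -1.12 (SE 0.28, adjusted p = 0.149) and Adamts9 at 1.08 (SE 0.25, adjusted p = 0.11). None of 5 hyaluronan and lectican genes, of 12 chondroitin sulfate genes or of 5 other matrix genes passed.

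**Figure D5:**
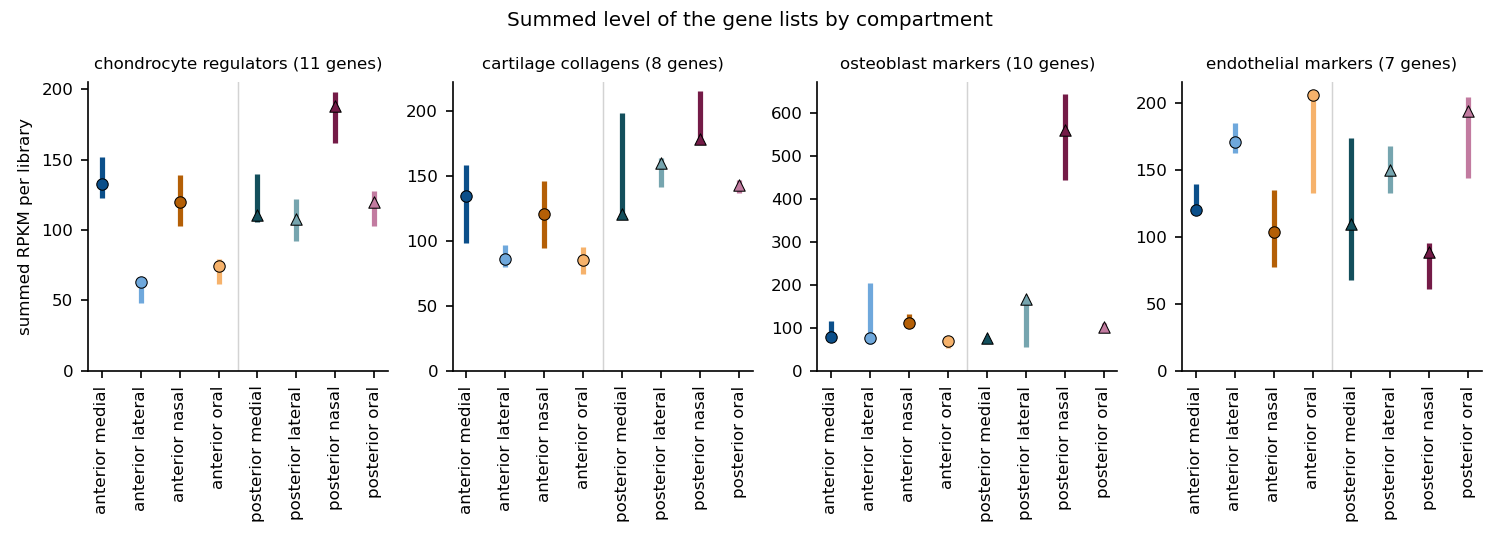
Summed RPKM per library of 4 gene lists in the 8 compartments, where symbols give the median and bars the lowest and highest library. The chondrocyte regulators sum highest in posterior nasal tissue (162 to 198 RPKM), where the osteoblast markers stand apart at 443 to 643 RPKM.

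The change of the oral to nasal difference between regions was tested over 4 compartments, and no member passed in a test that called 0.035% of 11442 genes. The anterior minus the posterior difference was 1.55 for Acan (SE 0.71), 1.37 for Matn2 (SE 0.50) and 0.02 for both Matn4 (SE 1.17) and Hapln1 (SE 0.58), each with an adjusted p of 1.0. In levels, Acan in nasal tissue was 1.07 to 4.92 RPKM in anterior and 6.48 to 13.1 RPKM in posterior libraries, with no overlap, as was so for 14.4% of genes in that direction. Matn4 overlapped between the nasal compartments.

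Posterior and anterior libraries were then compared as wholes, 12 against 13. The fit had no compartment term. Some runs held only anterior or only posterior libraries, so region is partly tied to run. Matn2 and Hapln1 alone of the members had 10 RPKM or more in at least 6 libraries, the minimum of this test, and neither passed, against 3.32% of 8608 genes. Matn2, a matrilin found in many connective tissues, ranged from 4.44 to 13.9 RPKM in anterior and from 7.74 to 29.2 RPKM in posterior libraries. It had a log2 fold change of 0.66 (SE 0.21, adjusted p = 0.0877), higher in posterior tissue, and passed without the second posterior oral library alone (0.73, adjusted p = 0.0472). With a run term in a fit of all 25 libraries the Matn2 difference was 0.71 (adjusted p = 0.429). In the fit of all 25 libraries by compartment, without that term, it was 0.65 (adjusted p = 0.0534). Hapln1 had a log2 fold change of -0.41 (SE 0.26, adjusted p = 0.48). Acan had a log2 difference of -0.28 (SE 0.61) and Matn4 of -0.50 (SE 0.69), with high and low compartments in both regions. Of 5 tested cartilage collagens 1 was called, Col2a1, higher in posterior tissue (log2 fold change 1.20, SE 0.25, adjusted p = 0.0037), while 4 had an unadjusted p under 0.05 and the median of the 5 was 0.44 against 0.03 for all genes tested. Of 4 tested regulators Pth1r was called, also higher (log2 fold change 0.79, SE 0.18, adjusted p = 0.011). Of 4 hyaluronan and lectican genes 2 fell, Has2 (log2 fold change -0.98, SE 0.18, adjusted p = 0.0014) and the hyaluronan receptor gene Cd44 (log2 fold change -1.16, SE 0.24, adjusted p = 0.0037). The genes of these lists were not tested with a run term.

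Over all 8 compartments at once, in an F test that called 4.42% of 11913 genes, Acan (adjusted p = 0.013) and Matn4 (adjusted p = 0.024) passed while Matn2 (adjusted p = 0.189) and Hapln1 (adjusted p = 0.256) did not. Both passed the minimum through their high compartments. Acan passed in each of 7 other settings and without any 1 library (adjusted p up to 0.0465). Matn4 did not pass with a run term (adjusted p = 0.227) or with a pseudocount of 0.01 (adjusted p = 0.0617), and over the same genes it did not pass without any 1 anterior medial library, the first posterior medial or the first posterior nasal library (adjusted p = 0.0511 to 0.0595). The mean Hapln1 level ran from 6.26 RPKM in anterior lateral to 17.0 RPKM in anterior oral tissue, where its values spread from 9.46 to 27.7 RPKM. The 27.7 RPKM came from the first anterior oral library, which had the lowest implied depth. The mean Matn2 level ran from 6.58 RPKM in anterior medial to 19.9 RPKM in posterior nasal tissue. For both genes all neighbours in the order of levels overlapped. The compartment with the lowest Matn2 level was 1 of the 2 highest for Acan, and posterior nasal was the highest for both.

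The other members were near the limit of what these libraries could count. Matn1, matrilin-1 of mature cartilage, was listed at 0 in 10 libraries and reached 2.79 RPKM in the fourth anterior nasal library, its highest value. Matn3, whose product is restricted mostly to cartilage, was listed at 0 in 9 libraries, among them all 3 posterior medial ones, and did not exceed 0.423 RPKM. Cytl1 was listed at 0 in 9 libraries and reached 2.96 RPKM in the first posterior medial library. The median approximate read number was 1.0 in each of these 3 genes. The highest was about 22.7 for Matn1, 6.2 for Matn3 and 17.0 for Cytl1. Differences between compartments were not tested for them.
Comp, cartilage oligomeric matrix protein, which also marks tendon, was listed at 0 in 1 library and ranged up to 2.05 RPKM in the first anterior medial library, with a median of about 6.0 reads. Chad was listed at 0 in 3 libraries, with a median of about 2.4 reads. For comparison the medians were about 48.2 reads for Acan, 20.1 for Matn4, 188 for Hapln1 and 115 for Matn2. All 5 genes were under every expression minimum and none was tested, and apart from Chad in the posterior palate their groups overlapped in each of the 4 comparisons between neighbouring compartments.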

How the data were processed

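Palate tissue was isolated by laser capture, and RNA was purified, amplified, tagmented and sequenced. The submitters' processing notes name TopHat and mm9. The authors dropped duplicate reads and reads with several alignments and worked in GeneSpring 12.6.1, and the deposited table gives 1 RPKM value per gene and library, so genes with near-identical copies can read low. The study's own annotation and the read counts were not used here, so a count test could not be run. The sequencing run of each library was read from alignment names in the study's supplementary headers. The members and gene lists were chosen with earlier results of these data known. All 9 members are named, with list genes called or most abundant, Sox9 and Col2a1.

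RPKM was turned into log2(RPKM + 0.1), which understates changes of low genes, and fitted with limma 3.58.1 in R 4.3.3. Pairs of compartments used only their own libraries and genes with 5 RPKM or more in at least 3 of them; posterior against anterior used all 25 libraries and 10 RPKM in at least 6. An adjusted p under 0.05 (Benjamini-Hochberg over all genes tested) was a call. The deviations of same-numbered anterior oral and nasal libraries correlated (r = 0.239, 0.214 and 0.130). The main fits used no pairing, and a block by library number changed no call. The highest correlation was between differently numbered libraries of 1 run (oral 2 with nasal 3, r = 0.504), and oral 3 correlated more with nasal 4 of its run (r = 0.150) than with nasal 3, so the numbers pair these libraries weakly. Libraries' depth was estimated from value steps and the transcript lengths listed in GENCODE, an annotation other than the study's. Read numbers of members used the longest transcript, or for Matn1, Matn3 and Cytl1 a length fitted so that reads came out whole. Fits were tested on simulated data. Alternatives were other pseudocounts, no minimum or a mean of 1 RPKM, median centring, a replicate block, a fit of all libraries, a run term and leaving out each library.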

Additional observations from a re-analysis of the deposited data

How the results depend on the processing

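Of the single member values, 745 of 811 alternative values kept their direction and side of the threshold, 25 lost a call, 4 gained one and 37 changed sign. Each library was left out both with the minimum applied anew and over the genes tested with all libraries, so many values repeat. Values of the F test have no direction and were counted by side of the threshold alone. Most member results were uncalled in the main fit, so these counts are no measure of how firm the calls are. The number of members called in the anterior lateral and medial comparison was 2, and became 1 with no expression minimum (Acan at an adjusted p of 0.051), 0 in the fit of all 25 libraries, 0 with the run term, and 0 to 2 when 1 library was left out. It was 0 without any anterior medial library because Acan and Matn4 then fell under the minimum. Over the genes tested with all libraries, a choice added after the data were seen, both were called without any 1 library (adjusted p up to 0.034). For posterior oral and nasal tissue the count of 1 became 0 with no minimum, in the fit of all 25 libraries and with the run term, and 0 to 1 when a library was left out. It was 0 to 1 for posterior and anterior tissue and for the change of the lateral to medial difference. Over the 8 compartments 2 members were called, 1 with a pseudocount of 0.01, 1 with the run term, and 1 to 2 when a library was left out.
With a replicate block the counts of members called were 2, 0, 0 and 1 in the 4 pair comparisons, and 0 for posterior against anterior, and no call changed. For same-numbered posterior lateral and medial libraries r was 0.226, 0.036 and 0.277, positive each time as in anterior oral and nasal tissue. In the remaining comparisons of pairs it ran from -0.155 to 0.418. The numbers were not taken as pairs in the main fits.
The 37 values that changed sign were uncalled differences near 0. Hapln1, anterior oral minus nasal, was -0.17 with the block and without the fourth nasal library and -0.31 to 0.46 over all libraries left out in turn. Hapln1, posterior oral minus nasal, was -0.054 to 0.34 over all libraries left out in turn. The change of the lateral to medial difference for Hapln1 was 0.20 with the run term and -0.59 to 0.11 when a library was left out. For the change of the oral to nasal difference it was -0.26 for Hapln1 and -0.65 for Matn4 with the block, -0.082 for Matn4 with the run term, -0.16 for Matn4 with a pseudocount of 0.01, and -0.41 to 0.37 for Hapln1 and -0.65 to 0.87 for Matn4 when a library was left out. The cause was not tested. The values under the minimum are limited by depth.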
